A study of Mus musculus with 8 samples.

Results

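The metallothioneins described here are Mt1, Mt2 and Mt4, 3 of the 22740 protein-coding genes listed for mouse dorsal skin. They were selected by gene symbol on the levels they showed in these same 8 libraries, so their levels and fold-changes are given as a description and carry no test. RNA was sequenced from dorsal skin of 8 female BALB/c mice aged 6 to 8 weeks and kept on a low-fibre diet, with 2 mice in each of 4 groups. CTL mice drank water, whereas butyrate-treated mice drank 400 mM sodium butyrate, a short-chain fatty acid that gut bacteria make from fibre, starting 2 weeks before allergen exposure and continuing through it. As a model of atopic dermatitis, the shaved back of the lesional mice was given 15 µg of house dust mite (HDM) extract under an occlusive patch, 4 times over 2 weeks. The baseline mice were not exposed to HDM, and the paper does not say whether the baseline skin sequenced here was patched. The groups are named below by skin state and treatment (for example, lesional CTL). Mice of the 2 skin states are numbered as different sets in the labels. The effect of HDM exposure cannot be told apart from that of the set or, if baseline skin was not patched, of the patch.

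Metallothioneins are small, cysteine-rich proteins that hold zinc and copper ions in clusters of cysteine sulphurs. Mt1 and Mt2 are made in most tissues, and their transcription is known to rise with zinc, through the metal-sensing factor MTF-1 and the metal response elements it binds, and also with glucocorticoids, oxidants and inflammatory cytokines. Mt4 is known from the differentiating layers of stratified squamous epithelia, among them the epidermis.

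The genes lie head to tail on the plus strand of chromosome 8, within 43131 bases of GRCm38 (GENCODE annotation). Mt4 (ENSMUSG00000031757) occupies 94137197 to 94139031, Mt2 (ENSMUSG00000031762) 94172664 to 94173568, and Mt1 (ENSMUSG00000031765) 94179082 to 94180327. Mt3, the fourth mouse family member and best known from brain, lies between Mt4 and Mt2. The principal transcript of each has 3 exons, and translation of its coding sequence gave 61 amino acids for Mt1, 61 for Mt2 and 62 for Mt4, with 20 cysteines in each. Mt1 and Mt2 were identical at 75.4% of aligned positions, Mt1 and Mt4 at 58.1%, and Mt2 and Mt4 at 62.9%. No 50-base stretch of these transcripts was shared with another annotated transcript apart from the antisense gene Gm45774 that overlaps Mt2, so reads of the 3 genes could be separated from each other.

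The 250 bases before each RefSeq start (GRCm38.p6, plus strand) are shown because metal response elements there are the feature that the family is best known for. Capitals mark the metal response element core, searched on both strands as TGCACNC and TGCGCNC, and in Mt4 also a TATA box, searched as TATAAA.
Mt1, chr8:94178839-94179088: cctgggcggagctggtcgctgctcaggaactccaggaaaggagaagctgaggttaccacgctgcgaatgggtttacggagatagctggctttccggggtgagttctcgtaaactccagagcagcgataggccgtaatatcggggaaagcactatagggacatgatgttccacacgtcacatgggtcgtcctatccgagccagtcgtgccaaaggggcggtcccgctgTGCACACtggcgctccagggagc
Mt2, chr8:94172368-94172617: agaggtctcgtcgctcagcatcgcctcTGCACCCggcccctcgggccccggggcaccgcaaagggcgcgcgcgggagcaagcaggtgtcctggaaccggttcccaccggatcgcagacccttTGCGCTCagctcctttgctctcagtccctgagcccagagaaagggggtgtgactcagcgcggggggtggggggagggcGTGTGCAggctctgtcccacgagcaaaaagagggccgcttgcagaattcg
Mt4, chr8:94136954-94137203: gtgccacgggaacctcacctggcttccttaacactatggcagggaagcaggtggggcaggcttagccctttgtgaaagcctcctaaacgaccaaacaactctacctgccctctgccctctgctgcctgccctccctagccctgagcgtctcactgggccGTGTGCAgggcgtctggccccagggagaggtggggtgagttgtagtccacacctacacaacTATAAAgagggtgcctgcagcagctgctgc

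In windows of 300 bases, which also take in the first 50 bases after the start, the metal response element core occurred 4 times in Mt2, 3 times in Mt1 and 1 time in Mt4. Among 32851 RefSeq windows of the same length, 25.7% held at least 1 such core and 7.1% held 2 or more. Within the printed stretches Mt2 held 3 cores, Mt1 held 1 and Mt4 held 1. The other Mt1 cores began at bases 3 and 21 from its start, after the printed stretch. Of the 3 windows, only that of Mt4 held the TATA box letters, 30 bases before its start, as did 13.6% of all windows. Bases outside these windows were not searched, so a TATA box or further cores there would be missed. Mt1 has 3 annotated transcripts and Mt4 has 1, and only 1 start was searched for each gene. The windows may therefore not be alike, and the counts of cores and TATA boxes do not rank the genes. Mt1 had 3 GC boxes (GGGCGG, present in 35.7% of windows). In Mt2 the letters of an AP-1 site (TGACTCA or TGAGTCA, 5.2% of windows) and of an antioxidant response element core (TGACNNNGC, 12.4% of windows) began at the same base. None of the 3 windows matched the E-box CACGTG (7.2% of windows) or the STAT site TTCNNNGAA (8.3% of windows).

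Libraries held between 18004136 and 21085544 counts, and all 3 genes passed the filter on low counts that left 15163 genes. One library stood apart. In baseline butyrate replicate 3 the summed level of 9 hair matrix and inner root sheath genes was 17230 CPM, the unit of counts scaled to library size that is used throughout, against 16.1 to 27.6 CPM in the other 7 mice, and melanocyte genes summed to 723 CPM against 24.7 to 44.1 CPM. Its 19 listed genes of late keratinocyte differentiation summed to 6446 CPM against 23916 to 26172 CPM in the other 3 baseline mice. Among 14198 genes with a mean of at least 1 CPM, 3751 differed more than 2-fold between the 2 baseline butyrate mice, compared with 266 between the baseline CTL mice, 198 between the lesional CTL mice and 676 between the lesional butyrate mice. Values without this library are given beside results that it moved, and others with the processing alternatives.

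Mt1 was lower in butyrate-treated than in CTL mice in both skin states. At baseline its level was 177 and 220.0 CPM in the CTL mice (replicates 1 and 2) and 105 and 78.5 CPM in the butyrate-treated mice (replicates 1 and 3). In lesional skin it was 204 and 338 CPM in the CTL mice (replicates 4 and 5) and 127 and 125 CPM in the butyrate-treated mice (replicates 3 and 4). The butyrate and CTL groups did not overlap in either skin state, and lesional CTL replicate 5 had the highest Mt1 level of all 8 mice. The group means were 198 ± 30.5 CPM for baseline CTL, 91.6 ± 18.5 for baseline butyrate, 271 ± 95.2 for lesional CTL and 126 ± 1.05 for lesional butyrate (SD, n = 2 each). From low to high the order was baseline butyrate, lesional butyrate, baseline CTL and lesional CTL, and only the last pair of neighbours, baseline CTL and lesional CTL, overlapped. Because whole skin was sequenced, fewer cells of a type and less RNA per cell cannot be told apart here or below.

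**Figure D1:**
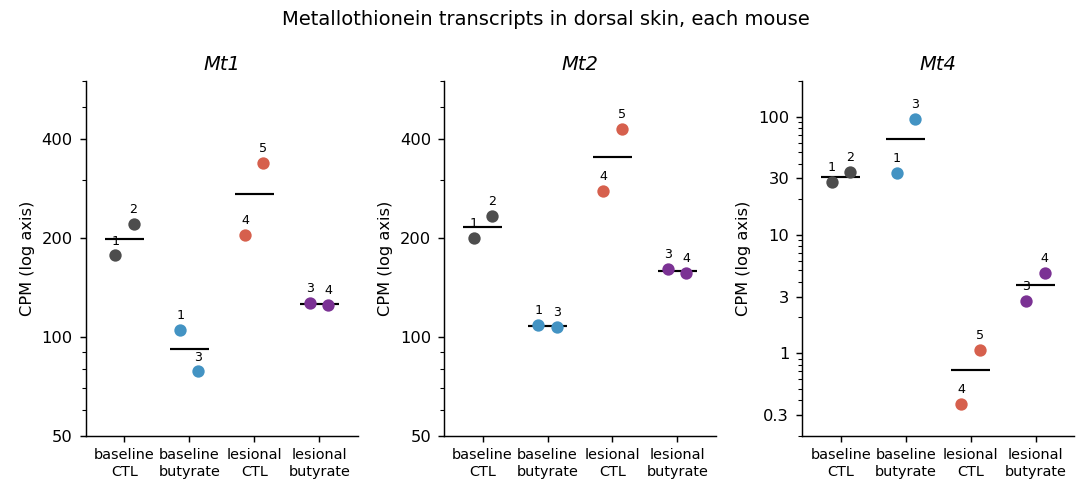
Level of Mt1, Mt2 and Mt4 in each of the 8 mice, in CPM on a log axis with a separate range for Mt4. Each point is 1 mouse with its replicate number and each black line is the mean of the 2 mice of a group. Mt1 and Mt2 were lower in the butyrate groups of both skin states, whereas Mt4 was between 27.8 and 95.9 CPM at baseline and between 0.374 and 4.75 CPM in lesional skin.

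Mt2 followed the same order of groups, and none of its 4 groups overlapped with another. Its level was 199.6 and 233 CPM in baseline CTL skin and 109 and 107 CPM in baseline butyrate skin. In lesional skin it was 277 and 428 CPM in CTL mice and 161 and 157 CPM in butyrate-treated mice. The butyrate-treated mice of each skin state were close to each other, while the lesional CTL mice were the most spread. The means were 216 ± 23.6, 108 ± 1.32, 353 ± 107 and 159 ± 2.91 CPM for baseline CTL and baseline butyrate, then lesional CTL and lesional butyrate (SD, n = 2 each). Per kilobase of principal transcript, the Mt2 mean was above the Mt1 mean in every group, from 211 against 167 CPM per kb in baseline butyrate to 691 against 494 CPM per kb in lesional CTL skin.

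The fitted log2 fold-changes of butyrate against CTL were of similar size in the 2 skin states. In baseline skin the log2 fold-change was -1.11 (SE 0.28) for Mt1 and -1.0 (SE 0.22) for Mt2. In lesional skin it was -1.10 (SE 0.28) for Mt1 and -1.15 (SE 0.22) for Mt2. In ratios of means, CTL skin held 2.17 times the Mt1 and 2.00 times the Mt2 of butyrate skin at baseline, and 2.15 and 2.22 times in lesional skin. The difference between the lesional and the baseline butyrate effect was 0.01 (SE 0.39) for Mt1 and -0.15 (SE 0.31) for Mt2 on the log2 scale. Without baseline butyrate replicate 3 the baseline fold-change was -0.92 for Mt1 and -0.99 for Mt2, and the difference of the effects was -0.18 and -0.16. The lesional values leaned on lesional CTL replicate 5, without which they were -0.69 for Mt1 and -0.80 for Mt2.

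The HDM comparison gave smaller values for Mt1 and Mt2. In CTL mice the log2 fold-change of lesional against baseline skin was 0.45 (SE 0.28) for Mt1, with overlapping groups, and 0.71 (SE 0.22) for Mt2, with the lesional mice higher. In butyrate-treated mice it was 0.46 (SE 0.28) for Mt1 and 0.56 (SE 0.22) for Mt2, and both lesional mice were above both baseline mice for each gene. Without lesional CTL replicate 5 the values in CTL mice were 0.04 for Mt1 and 0.36 for Mt2. In butyrate-treated mice the Mt1 value was 0.27 without baseline butyrate replicate 3 and 0.69 without replicate 1, while Mt2 was at 0.55 and 0.58.

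The balance of the 2 genes differed between mice. Of the reads assigned to Mt1 or Mt2, Mt2 took 53.0% (95% exact binomial interval 51.8 to 54.2) and 51.4% (50.3 to 52.5) in the baseline CTL mice. In baseline butyrate skin its share was 51.0% (49.4 to 52.6) in replicate 1 and 57.7% (56.1 to 59.2) in replicate 3. Lesional CTL mice had 57.6% (56.6 to 58.7) and 55.9% (55.1 to 56.6), and lesional butyrate mice 55.9% (54.7 to 57.2) and 55.6% (54.3 to 56.8). All 4 lesional mice were thus above 3 of the 4 baseline mice, and the baseline mouse with the highest share was the library with the high hair genes. The intervals cover counting error only. Over the 8 mice the log2 CPM values of Mt1 and Mt2 had a Pearson r of 0.97 (Spearman rho 0.98), and r was between 0.95 and 0.98 when any 1 mouse was left out, which is a description of 4 groups of 2 mice from shared libraries.

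**Figure D2:**
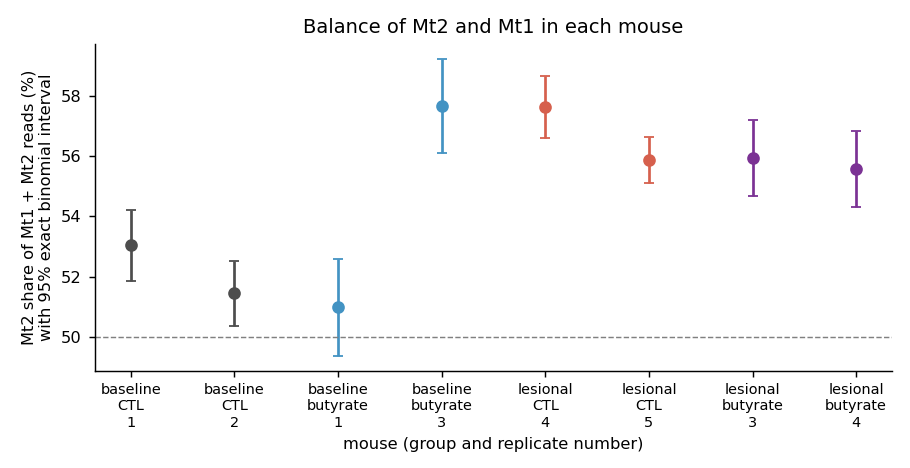
Share of Mt2 among the reads of Mt1 and Mt2 together, in percent, for each of the 8 mice, with bars for the 95% exact binomial interval and a dashed line at 50%. The 4 lesional mice lie between 55.6% and 57.6%, and among the baseline mice only butyrate replicate 3, at 57.7%, lies as high.

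Mt4 had another pattern, with its lowest levels in lesional CTL skin. It was at 27.8 and 33.8 CPM (501 and 609 reads) in baseline CTL mice, and at 33.4 and 95.9 CPM (592 and 2013 reads) in baseline butyrate replicates 1 and 3. In lesional skin it was at 0.374 and 1.06 CPM (7 and 23 reads) in CTL mice and at 2.77 and 4.75 CPM (58 and 102 reads) in butyrate-treated mice. All 4 lesional mice were below all 4 baseline mice, and in lesional skin the CTL mice were both below the butyrate-treated ones. Group means were 30.8 ± 4.21 CPM for baseline CTL, 64.6 ± 44.2 for baseline butyrate, 0.718 ± 0.486 for lesional CTL and 3.76 ± 1.4 for lesional butyrate (SD, n = 2 each). The 2 baseline groups, which stood highest, overlapped, and the other neighbours in the order did not. The exact Poisson intervals of the read counts, 2.81 to 14.4 reads for the lower lesional CTL mouse and 14.6 to 34.5 reads for the other, show how few reads the lesional CTL values rest on.

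Baseline CTL skin held 43.0 times the Mt4 of lesional CTL skin, with ratios of single mice from 26.2 to 90.5. The fitted log2 fold-change was -5.39 (SE 0.73), the fifth-largest decrease among the 15163 genes by size. Mt4 was selected on these levels and had few reads in lesional CTL skin, so the rank is a description only. In butyrate-treated mice the ratio was 17.2, with single-mouse ratios from 7.03 to 34.6 and a log2 fold-change of -4.10 (SE 0.65), which was -3.15 without baseline butyrate replicate 3. Within lesional skin butyrate-treated mice held 5.24 times the Mt4 of CTL mice, with single-mouse ratios from 2.61 to 12.7 and a log2 fold-change of 2.35 (SE 0.71). Leaving out either lesional CTL mouse moved this last value to 1.82 or 3.31. In baseline skin the log2 fold-change of butyrate against CTL was 1.07 (SE 0.57), and 0.11 without replicate 3, so that this difference was carried by the library with the high hair genes. The difference between the lesional and the baseline butyrate effect on Mt4 was 1.28 (SE 0.91), and 2.23 without replicate 3.

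**Figure D3:**
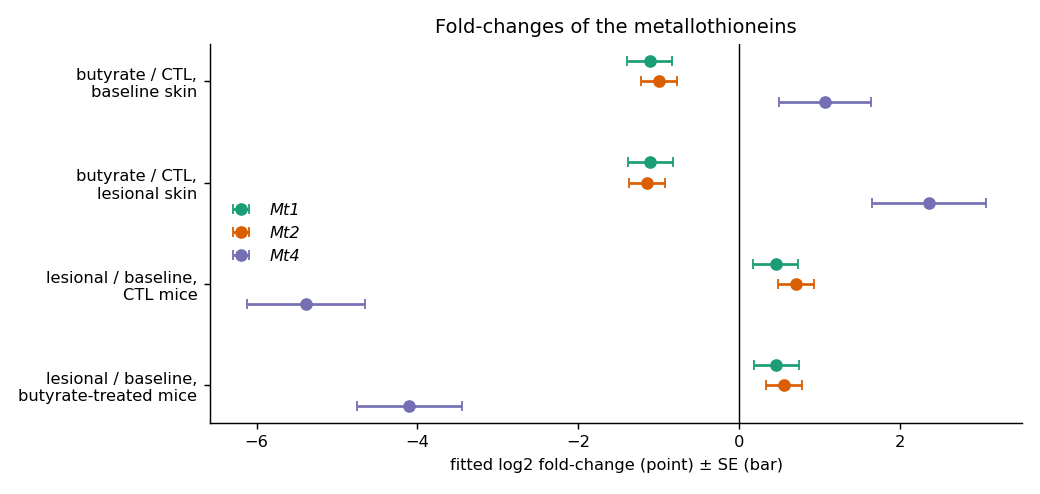
Fitted log2 fold-change (points) with its SE (bars) of Mt1, Mt2 and Mt4 in the 4 comparisons, from a model over all 8 mice. Mt1 and Mt2 lie between -1.15 and -1.0 for butyrate against CTL, while Mt4 lies at 1.07 and 2.35 there and at -5.39 and -4.10 for lesional against baseline skin.

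A gene was called when its false discovery rate was below 0.1 and its fold-change above 2, the thresholds of the study, by the quasi-likelihood test of edgeR. For butyrate against CTL in lesional skin, 0 of the 3 metallothioneins and 0% of all 15163 genes were called (734 genes had an unadjusted p below 0.05, and limma-voom called 1 gene and DESeq2 124). The study did report differing genes in this comparison at these thresholds, by voom/limma. The count over all genes moved without baseline butyrate replicate 3, a mouse outside this comparison, as given with the processing alternatives. Mt1 and Mt2 were among the 22.5% of genes whose groups did not overlap with butyrate lower, and Mt4 among the 22.4% with butyrate higher. For butyrate against CTL in baseline skin, again 0 of 3 and 0% were called (529 genes with an unadjusted p below 0.05, 0 by limma-voom and 58 by DESeq2). Mt1 and Mt2 were among the 15.9% that did not overlap with butyrate lower, and none of the 3 was among the 13.8% with butyrate higher. For lesional against baseline skin in CTL mice, Mt4 was among the 1.21% called lower and none was among the 2.37% called higher, while Mt2 was among the 36.7% not overlapping and higher and Mt4 among the 38.5% not overlapping and lower. In butyrate-treated mice none was among the 0.277% called higher or the 0.0725% called lower, Mt1 and Mt2 were among the 15.7% not overlapping and higher, and Mt4 among the 16.9% not overlapping and lower. For the difference of the butyrate effects, 0 of 3 and 0% were called (703 genes with an unadjusted p below 0.05, 0 by limma-voom and 37 by DESeq2). The Mt4 call in CTL mice was lost without either baseline CTL mouse or without lesional CTL replicate 4, fits in which calls over all genes fell as well. Since the 3 genes were selected on these values, nothing is read from their own counts or calls.

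Mt4 was set beside the markers of the layer it is known from. The late keratinocyte differentiation list includes the keratins Krt1 and Krt10, loricrin (Lor) and corneodesmosin (Cdsn). The paper counts KRT1 and KRT10 as early markers in human keratinocytes, so the list is not limited to late genes. Its genes summed to 26172 and 23916 CPM in baseline CTL mice and to 24209 and 6446 CPM in baseline butyrate replicates 1 and 3. In lesional skin they summed to 9041 and 10798 CPM in CTL mice and to 26842 and 19387 CPM in butyrate-treated mice. One lesional butyrate mouse thus had a differentiation sum above both baseline CTL mice and the other a sum below both, while the Mt4 levels of both were far below those of baseline skin. Per 1000 CPM of these genes, Mt4 was at 1.06 and 1.41 CPM in baseline CTL, 1.38 and 14.9 in baseline butyrate, 0.0413 and 0.0983 in lesional CTL, and 0.103 and 0.245 in lesional butyrate mice. Mt4 was highest in the mouse with the lowest differentiation sum, the one with the high hair genes. Over these 8 mice its level did not follow this sum, though both were higher with butyrate in lesional skin. Genes of the list differed among themselves. Lce1m was at 598 to 687 CPM in 3 baseline mice, 139 CPM in baseline butyrate replicate 3, 11.5 and 41.4 CPM in lesional CTL mice and 177 and 107 CPM in lesional butyrate mice. Ivl was at 147 to 150 CPM, 344 CPM, 165 and 167 CPM, and 350 and 247 CPM in the same order. The word "epidermal" is used for Mt4 here only as background. Filaggrin (Flg), another defining gene of the layer, is not among the genes listed here.

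**Figure D4:**
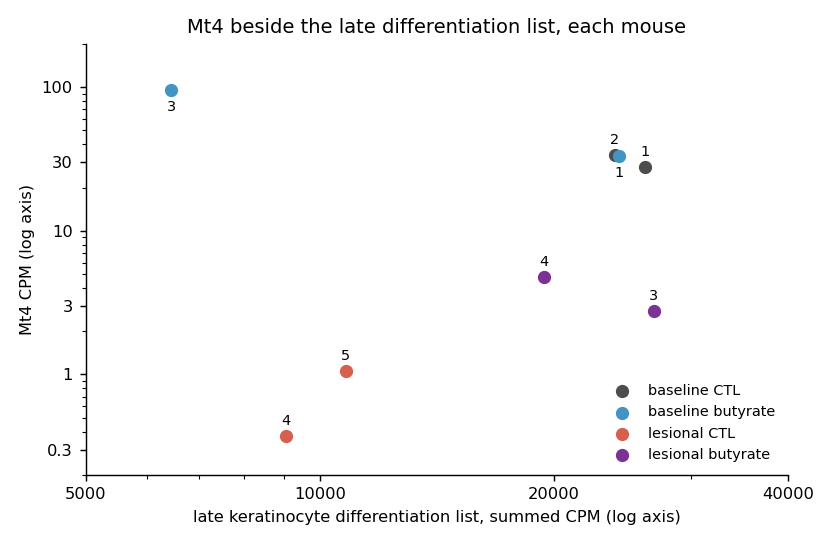
Mt4 level in CPM against the summed CPM of 19 late keratinocyte differentiation genes, both on log axes, with 1 numbered point for each of the 8 mice. Baseline butyrate replicate 3 lies apart at upper left with 95.9 CPM of Mt4, and the lesional butyrate mice have 2.77 and 4.75 CPM at differentiation sums of 26842 and 19387 CPM.

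The other pathway genes were tested in the same fit. For zinc handling, 21 of 25 listed genes passed the filter, comprising MTF-1 (Mtf1), the Slc30a exporters and the Slc39a importers. None was called in any comparison by edgeR, and the list medians were 0.01 for butyrate against CTL in lesional skin, 0.13 in baseline skin, 0.29 for lesional against baseline skin in CTL mice and 0.02 in butyrate-treated mice, against medians of all genes between -0.04 and 0.00. At an unadjusted p below 0.05 there were 0, 3, 3 and 4 of these genes in the same order, and 1 for the difference of the butyrate effects. limma-voom called 0 zinc genes in each comparison, and DESeq2 called 1 higher for lesional skin in CTL mice and 1 lower in butyrate-treated mice. Of all genes, DESeq2 called 1093 and 698 in these comparisons, in either direction. Slc39a1, a zinc importer of the plasma membrane, was at 148 ± 2.94 CPM in lesional and 106 ± 2.26 CPM in baseline CTL skin (log2 fold-change 0.48, SE 0.13, adjusted p = 0.136, edgeR). Slc39a12 was at 0.728 ± 0.22 CPM in lesional butyrate mice and 2.15 ± 0.815 CPM in lesional CTL mice (log2 fold-change -1.55, SE 0.65, adjusted p = 1, edgeR). Slc39a14, an importer known to respond to inflammation, stood at 86.6 and 113 CPM in the CTL mice of the lesional state and at 46.1 and 41.9 CPM in the butyrate-treated ones (log2 fold-change -1.18, SE 0.68, adjusted p = 1, edgeR).

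The zinc values of baseline butyrate skin rested on replicate 3. Its zinc list summed to 2166 CPM, against 813 to 1077 CPM in the other 7 mice. Slc39a10 was at 446 CPM in this mouse and at 45.5 to 84.3 CPM in the others, and Slc39a6, with which it is known to pair, was at 334 CPM against 45.2 to 89.8 CPM. The log2 fold-changes of butyrate against CTL at baseline were 2.33 (SE 0.84) for Slc39a10 and 2.00 (SE 0.80) for Slc39a6, both with adjusted p = 0.714 (edgeR). Without baseline butyrate replicate 1, which leaves replicate 3 alone in its group, 8 of 22 tested zinc genes were called higher and 1 lower, while 9.35% of all 15677 genes tested in that fit were called higher and 14.7% lower. Without replicate 3 edgeR called 0 zinc genes and 0 of all 15349 genes tested, and the list median was -0.01. For lesional against baseline skin in butyrate-treated mice the list median was 0.42 without replicate 3.

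For copper handling, 12 of 13 listed genes passed the filter, among them the importer Slc31a1, the exporter Atp7a and the copper-zinc superoxide dismutase Sod1. By edgeR 0 were called in any of the 5 comparisons, 0 had an unadjusted p below 0.05, and limma-voom and DESeq2 also called 0. The list medians were between -0.16 and 0.24. The summed level was between 549 and 617 CPM in all 8 mice, and Sod1 was at 66.1 ± 10.4 CPM in lesional and 102 ± 8.82 CPM in baseline CTL skin (log2 fold-change -0.63, SE 0.28, adjusted p = 0.281, edgeR).

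Glucocorticoid-induced genes share an inducer with Mt1 and Mt2. In lesional against baseline CTL skin 2 of 10 tested were called lower and 0 higher, with a list median of -0.96 and 9 of 10 below 0, while 1.21% of all genes were called lower. Per1, a clock gene, fell from 133 ± 4.87 to 27.0 ± 4.68 CPM (log2 fold-change -2.30, SE 0.28, adjusted p = 0.0307, edgeR), and Ddit4, an inhibitor of mTOR signalling, from 94.4 ± 19.8 to 30.1 ± 5.69 CPM (log2 fold-change -1.65, SE 0.20, adjusted p = 0.0307, edgeR). In butyrate-treated mice only Per1 was called lower (log2 fold-change -1.97, SE 0.28, adjusted p = 0.0946, edgeR). The list median was -0.42 with 8 of 10 genes below 0, and 0.0725% of all genes were called lower. For butyrate against CTL 0 of 10 were called in either skin state by edgeR or by the other 2 tools. The list median for that comparison was -0.63 in baseline skin, with 9 of 10 genes below 0 and 2 at an unadjusted p below 0.05, and -0.05 in lesional skin, with 0 at that p. At baseline the smallest p belonged to the phosphatase Dusp1 (log2 fold-change -0.73, SE 0.24, adjusted p = 0.714, edgeR) and to Errfi1, an inhibitor of EGF receptor signalling (-0.68, SE 0.25). Without baseline butyrate replicate 3 the baseline median was -0.35, with 10 of 10 genes below 0, and that of lesional against baseline skin in butyrate-treated mice was -0.75.

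Targets of the oxidative stress factor NRF2 were not called in any comparison by edgeR or limma-voom (0 of 10). DESeq2 called 1 higher for butyrate at baseline and 1 higher for lesional skin in CTL mice. Of all genes, DESeq2 called 58 and 1093 in these comparisons, in either direction. At an unadjusted p below 0.05 there were 0 for butyrate in lesional skin, 1 at baseline, 3 for lesional skin in CTL mice, 0 in butyrate-treated mice and 1 for the difference of the butyrate effects, and the list medians were -0.12, 0.50, 0.20, -0.33 and -0.50 in the same order. With baseline butyrate replicate 3 left out, the medians were -0.04 for butyrate at baseline, 0.13 for lesional skin in butyrate-treated mice and -0.06 for the difference of the butyrate effects. Slc7a11, the cystine importer, was at 31.2 and 31.8 CPM in lesional CTL mice, 11.3 and 4.23 CPM in lesional butyrate mice, and 1.00 to 1.30 CPM in 3 baseline mice. It was at 47.1 CPM in baseline butyrate replicate 3, the library with the high hair and melanocyte genes. Hmox1, haem oxygenase, measured 130 ± 47.5 CPM without butyrate and 81.1 ± 6.00 CPM with it in lesional skin (log2 fold-change -0.68, SE 0.28, adjusted p = 1, edgeR).

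IL-6 signalling through STAT3 is another input known for Mt1 and Mt2. Of 11 genes tested in the list of this response, 5 were called higher and 0 lower in lesional against baseline CTL skin. The median log2 fold-change was 1.29, while 2.37% of all genes were called higher. Saa3, an acute-phase protein, was at 94.5 ± 15.6 CPM in lesional and 1.61 ± 0.470 CPM in baseline CTL skin (log2 fold-change 5.87, SE 0.79, adjusted p = 0.0372, edgeR). Lcn2, which binds bacterial iron carriers, was at 174 ± 8.59 against 5.80 ± 0.191 CPM (4.90, SE 0.43, adjusted p = 0.0141, edgeR), Il6 itself at 13.7 ± 3.43 against 0.444 ± 0.315 CPM (4.93, SE 0.67, adjusted p = 0.0372, edgeR), and the protease inhibitor Timp1 at 106 ± 7.87 against 6.44 ± 1.57 CPM (4.03, SE 0.46, adjusted p = 0.0278, edgeR). In butyrate-treated mice only Lcn2 was called higher (3.59, SE 0.41, adjusted p = 0.0709, edgeR), 1 of 11. All 11 were above 0, with a list median of 0.84, while 0.277% of all genes were called higher. For butyrate against CTL in lesional skin 0 of 11 were called by edgeR or limma-voom. DESeq2 called 5 lower, beside 124 of all genes in either direction. The median was -0.75, 10 of 11 were below 0, and 5 had an unadjusted p below 0.05. When baseline butyrate replicate 3 was left out, edgeR called 5 of these 11 lower, while 0.886% of all genes were called lower. In baseline skin 0 of 11 were called by any of the 3 tools, 1 had an unadjusted p below 0.05, and the median was -0.39, or -0.07 without replicate 3. Il6 was at 2.27 ± 0.507 CPM with butyrate and 13.7 ± 3.43 CPM without it in lesional skin (log2 fold-change -2.59, SE 0.57, adjusted p = 0.737, edgeR). Markers of some other cells were also higher in lesional than in baseline skin, while others were not. Skeletal muscle genes, for example, summed to 38901 and 47422.5 CPM in baseline CTL mice and to 16699 and 23517.5 CPM in lesional CTL mice. Neutrophil genes summed to 1708 and 2691 CPM in the lesional CTL mice, to 355 and 779 CPM in the lesional butyrate mice, and to 14.7 to 23.8 CPM in baseline mice. Genes of injury-induced keratinocytes summed to 6152 and 9258 CPM in lesional CTL mice, 3811 and 5349 CPM in lesional butyrate mice, 1043 and 1190 CPM in baseline CTL mice, and 1065 and 3361 CPM in baseline butyrate replicates 1 and 3. Of these 6 genes 5 were called higher in lesional CTL skin, and all 6 were below 0 for butyrate in lesional skin, where edgeR called 0 and 4 had an unadjusted p below 0.05. Mast cell genes summed to 423 and 509.5 CPM in lesional CTL mice, 395 and 405 CPM in lesional butyrate mice and 144 to 216 CPM in baseline mice, with 3 of 7 called higher in lesional CTL skin. The part of these cells in the result was not tested.

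**Figure D5:**
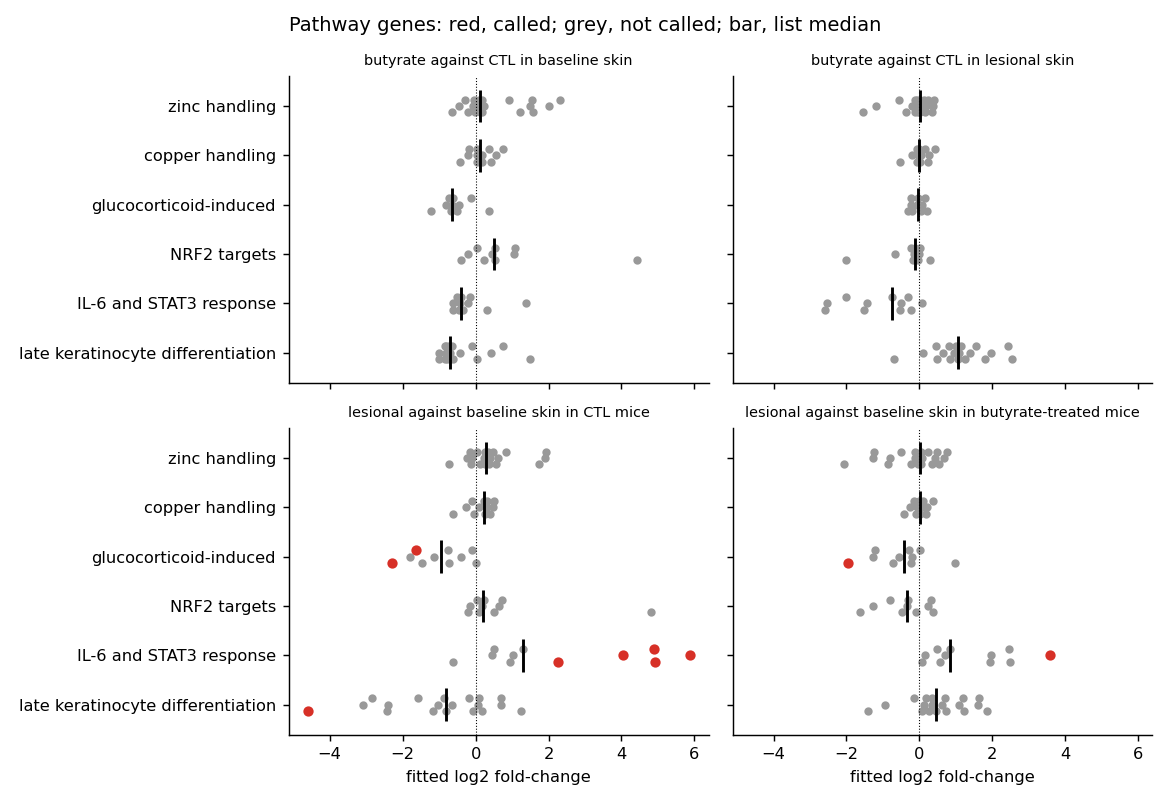
Fitted log2 fold-change of each tested gene of 6 pathway lists in 4 comparisons, with called genes in red, the others in grey and the list median as a black bar. Called genes appear for lesional against baseline skin, where 5 IL-6 and STAT3 response genes were called higher in CTL mice, and in neither butyrate comparison.

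The late differentiation genes themselves showed 1 call. Lce1m, a cornified envelope gene, fell from 643 ± 63.3 CPM in baseline to 26.4 ± 21.2 CPM in lesional CTL skin (log2 fold-change -4.60, SE 0.93, adjusted p = 0.0734, edgeR), 1 of 19 tested, and the list median was -0.81. For butyrate against CTL in lesional skin 0 of 19 were called by edgeR or limma-voom. DESeq2 called 2 higher, beside 124 of all genes in either direction. The list median was 1.05, with 18 of 19 above 0 and 6 at an unadjusted p below 0.05. After omission of baseline butyrate replicate 3, edgeR called 3 of these 19 higher, while 0.332% of all genes were called higher. In baseline skin 0 of 19 were called for butyrate against CTL by any of the 3 tools, 0 had an unadjusted p below 0.05, and the median was -0.71, or -0.16 without replicate 3. For lesional against baseline skin in butyrate-treated mice edgeR and limma-voom called 0 of the 19. DESeq2 called 3 higher, beside 698 of all genes in either direction. There were 4 at an unadjusted p below 0.05, and the list median was 0.44. Cdsn was at 604 ± 137 CPM with butyrate and 282 ± 33.2 CPM without it in lesional skin (log2 fold-change 1.10, SE 0.27, adjusted p = 0.737, edgeR). The Mt4 log2 fold-change in that comparison, 2.35, compares with a highest value of 2.53 in this list. In lesional against baseline CTL skin the Mt4 value of -5.39 compares with a lowest value of -4.60, that of Lce1m. The list calls in CTL mice depended on single libraries. Without any 1 of the 4 CTL mice, the calls of glucocorticoid-induced, IL-6 and STAT3 response and late differentiation genes were lost in this comparison. Calls over all genes fell as well in those fits, so the loss is not particular to these lists. Without baseline butyrate replicate 1 or 3, more genes of these lists were called. Calls over all genes rose as well in these fits, to 6.31% higher and 6.04% lower without replicate 1 and to 6.33% higher and 6.12% lower without replicate 3. Without either lesional butyrate mouse they were 1, 2 and 0. In butyrate-treated mice the calls of Per1 and Lcn2 were lost without any 1 of the 4 CTL mice or either lesional butyrate mouse. Calls over all genes fell as well in those fits, so this is not particular to the 2 genes. Per1 and Lcn2 were also not called with only the mice compared, where edgeR called 0 genes in all. Without baseline butyrate replicate 3 that comparison had 5 glucocorticoid-induced genes called lower and 4 IL-6 and STAT3 response genes called higher, beside 3.44% and 2.5% of all genes.

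The genes whose levels were most like those of each metallothionein were sought among 14195 genes with a mean of at least 1 CPM, by the Pearson r of log2 CPM over the 8 mice. For Mt1 they were Scfd2 (0.952), the translation factor Eif4g3 (0.952), the epithelial mucin Muc1 (0.936), the cadherin Celsr3 (0.921) and the nucleotide sugar transporter Slc35d1 (0.918). For Mt2 they were Scfd2 (0.938), Muc1 (0.924), Eif4g3 (0.923), the complement receptor C5ar2 (0.921) and Celsr3 (0.907). For Mt4 they were the transcriptional co-regulator Cited4 (0.990), the histone deacetylase Hdac5 (0.988), Tmem260 (0.988), the copper-dependent ferroxidase Heph (0.987) and the basement membrane collagen Col4a5 (0.986). All points share the 8 libraries and fall into 4 groups of 2 mice, so these values describe likeness of pattern only. By rank correlation 1 of the 5 stayed among the closest for Mt1, 1 for Mt2 and 0 for Mt4.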

How the data were processed

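The authors aligned reads with STAR 2.5.2 to GRCm38 through RNASik, assigned them to genes with featureCounts and deposited the raw counts of protein-coding genes, not normalized. Counting was reverse-stranded per the file headers. The study names a TruSeq RNA kit without saying whether it keeps strand, so reads of Gm45774 and Mt2 may not be separated if it does not. Groups were taken from the sample labels. CPM used TMM-scaled library sizes. Fold-changes, SEs and calls come from the quasi-likelihood test of edgeR 4.0.16 in R 4.3.3 over all 8 mice and 4 groups, after filterByExpr with a minimum count of 10, with Benjamini-Hochberg adjustment over 15163 genes. The design leaves 4 residual degrees of freedom. Each p-value sets a group difference against a spread between mice estimated over all 4 groups, among them the widely separated baseline butyrate pair. Other settings tried were DESeq2 1.42.0, limma-voom (limma 3.58.1), RLE factors, no filter, only the mice compared, a prior count of 2 in place of 0.125, and leaving out each mouse. Named genes were the members, from each list the called genes, up to 4 by size, or else the 2 with the smallest p, and the 5 genes most like each member. Of these, Slc39a11, Commd1, Cox11 and others with the smallest p are not described singly. Members and lists were chosen with earlier results of these data known. The design text counts 16 samples, and 8 were analysed here. Promoters came from RefSeq on GRCm38.p6 and loci from GENCODE M 21, where all 3 members were found. The 2 sources place the starts differently. The RefSeq first base is 94179089 for Mt1, 94172618 for Mt2 and 94137204 for Mt4, against GENCODE starts of 94179082, 94172664 and 94137197.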

Additional observations from a re-analysis of the deposited data

How the results depend on the processing

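The direction of Mt1, Mt2 and Mt4 was kept under limma-voom, DESeq2, RLE factors, no filter, a prior count of 2 and only the mice compared, in each comparison between groups. Counts over all genes moved more. DESeq2 called 124 genes for butyrate against CTL in lesional skin (limma-voom 1, only the mice compared 25), 58 in baseline skin, 1093 for lesional against baseline skin in CTL mice, 698 in butyrate-treated mice and 37 for the difference of the butyrate effects, against 0, 0, 543, 53 and 0 in edgeR. With only the mice compared, lesional against baseline skin gave 1918 calls in CTL mice and 0 in butyrate-treated mice. The causes were not tested. Of zinc genes, DESeq2 called 1 higher in lesional CTL skin and 1 lower in lesional butyrate skin against baseline, and only the mice compared gave 3 higher in CTL mice. Without TMM the mean was 129.6 CPM for Mt1 and 163 CPM for Mt2 in lesional butyrate skin, and 106 CPM for Mt2 in baseline butyrate skin, shifts above the small spread of these pairs of mice. Leaving out 1 mouse leaves a lone sample that is assumed to vary like the other groups. Calls then ran from 0 to 191 and from 0 to 3777 for butyrate in lesional and baseline skin, from 0 to 1936 and from 0 to 2990 for HDM in CTL and butyrate-treated mice, and from 0 to 3275 for the difference of the butyrate effects. The highest counts came without baseline butyrate replicate 1, and without replicate 3 they were 187, 0, 1911, 912 and 0. Over the same omissions the log2 fold-change of butyrate against CTL in lesional skin ran from -1.42 to -0.69 for Mt1, -1.43 to -0.80 for Mt2 and 1.82 to 3.31 for Mt4, and that of Mt4 in baseline skin from 0.11 to 1.63. For lesional against baseline skin in CTL mice it ran from 0.040 to 0.77 for Mt1, 0.36 to 0.99 for Mt2 and -6.34 to -4.85 for Mt4, and in butyrate-treated mice from 0.27 to 0.69 for Mt1 and -4.66 to -3.15 for Mt4. The difference of the butyrate effects ran from -0.31 to 0.43 for Mt1, -0.43 to 0.20 for Mt2 and 0.71 to 2.24 for Mt4. Zinc genes called lower ran from 0 to 1 for butyrate in lesional skin, called higher from 0 to 8 and lower from 0 to 1 for butyrate in baseline skin, higher from 0 to 3 for HDM in CTL mice, and higher from 0 to 1 and lower from 0 to 7 in butyrate-treated mice. Copper genes ran from 0 to 1 higher and 0 to 1 lower for butyrate in baseline skin and from 0 to 1 higher for HDM in butyrate-treated mice. Depth limits Mt4 in lesional CTL skin, at 7 and 23 reads. No paired analysis was made, since the libraries came from different mice and the labels name no pairs.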

Other observations

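Mt3, the family member that lies between Mt4 and Mt2 and is best known from brain, was listed and passed the filter on low counts. It was at 0.945 and 1.39 CPM in baseline CTL mice, 1.13 and 0.333 CPM in baseline butyrate mice, 0.427 and 0.831 CPM in lesional CTL mice and 0.477 and 1.07 CPM in lesional butyrate mice, from 7 to 25 reads. The log2 fold-change of butyrate against CTL was 0.29 (SE 0.73) in lesional and -0.69 (SE 0.71) in baseline skin, with overlapping groups in both. For lesional against baseline skin it was -0.87 (SE 0.72) in CTL mice, where the groups did not overlap, and 0.11 (SE 0.72) in butyrate-treated mice. Its window around the RefSeq start held 1 metal response element core.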
